A study of Mus musculus with 40 samples.

Results

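Alas1 and Clpx were followed across the livers of mice that differed in sex, gonads and hormone pellet. The members are all probes that the platform annotation gives the symbol Alas1 or Clpx, which came to 3 of the 23574 probes on the array, 1 for Alas1 and 2 for Clpx, and to 2 of the 10842 genes that carry a name. Both Clpx probes are annotated to the same transcript. Both genes were chosen by their log2 ratios in these same livers and by the correlation between them, so their differences between groups and their correlation are given as descriptions with no p-value.

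The study hybridised liver RNA of 40 C57BL/6J mice, 5 in each of 8 groups, on 2-colour arrays. The animals ate a chow with 4% fat, and livers were taken at 14 weeks of age after a fast of 12 h. The intact females and the intact males kept their gonads, and the labels do not say whether they carried a pellet. The other groups were Ovarectomized (females) or Castrated (males) at 8 weeks and received a subcutaneous pellet at 12 weeks, designed to release for 21 days. That pellet held placebo, 0.5 mg estradiol (labelled estrogen, E2; a plasma level of 300 pg/ml is stated) or 5 mg dihydrotestosterone (DHT, an androgen that aromatase does not turn into estrogen; 1 to 2 ng/ml is stated). All 8 groups share the strain, the chow, the age and the fast, and the gonadectomized groups also share the surgery and a pellet. Animals are named by the numbers in the labels, which are not shared between groups.

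Each value is the ratio of 1 liver, labelled with Cy5, to a pool of equal parts of RNA from all 40 livers, labelled with Cy3. It is given as a log2 ratio, so 0 is the level of the pool and 1 is a doubling. A ratio to a pool compares livers for 1 probe; it does not compare the level of Alas1 with that of Clpx. In bulk liver, fewer cells of a type and less RNA per cell cannot be told apart.

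Alas1 encodes the housekeeping form of 5-aminolevulinate synthase, which joins glycine and succinyl-CoA in the mitochondrial matrix and sets the pace of heme synthesis in liver, where much of the heme goes into cytochrome P450 enzymes. Its transcription is known to respond to fasting through PGC-1alpha, to xenobiotic receptors and to the circadian clock, and heme itself lowers the mRNA and the protein. Clpx encodes the hexameric unfoldase of the mitochondrial matrix that feeds proteins into the ClpP protease; it is no enzyme of the heme pathway, but it activates aminolevulinate synthase by helping its cofactor in, and in mammals it takes part in the heme-dependent breakdown of ALAS1.

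Array medians lay between -0.045 and 0.036 log2, and interquartile ranges between 0.129 and 0.34, so most probes sat near the pool. The Y-linked genes Eif2s3y and Kdm5d separated the 20 females, which were low, from the 20 males without overlap, in keeping with the sex on the labels. The mean of the 4 measured hepatocyte markers lay between -0.151 and 0.156 over the groups, but it joins markers that went opposite ways. Between the intact sexes 1 of the 4 was called higher in females and 1 lower (50%, beside 8.69% of all probes). Ttr had means of 0.458 in intact females and -0.11 in intact males, and Serpina1a -0.093 and 0.204. The joint mean thus does not show that hepatocyte content was steady. Ratios to a liver pool cannot show whether a marker is absent. The 7 Kupffer cell markers were most variable in ovariectomized females with estradiol, where their mean ran from -0.332 to 1.85 (log2) over the 5 livers.

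Both genes lie on mouse chromosome 9 (RefSeq, GRCm38.p6), Clpx on the plus strand with its annotated start at 65294260, and Alas1 on the minus strand with annotated starts at 106247954 and 106247730. The bases upstream of the first start are shown because the promoters of both genes hold the same core of a binding site for NRF-1, a factor of nuclear genes for mitochondrial proteins; capitals mark that core, GCATGCGC. The Clpx run is chr9:65294010-65294250 (241 bases, plus strand, 58.5% G and C) and the Alas1 run is chr9:106247955-106248204 (250 bases, minus strand, 62.4% G and C). The Clpx run stops short of its start because the first annotated base of the gene lies a little upstream of that start.
Clpx: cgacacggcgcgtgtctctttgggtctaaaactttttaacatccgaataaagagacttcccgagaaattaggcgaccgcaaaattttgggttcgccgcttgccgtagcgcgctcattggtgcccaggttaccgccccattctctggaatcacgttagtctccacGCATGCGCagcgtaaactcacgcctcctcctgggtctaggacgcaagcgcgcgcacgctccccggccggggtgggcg
Alas1: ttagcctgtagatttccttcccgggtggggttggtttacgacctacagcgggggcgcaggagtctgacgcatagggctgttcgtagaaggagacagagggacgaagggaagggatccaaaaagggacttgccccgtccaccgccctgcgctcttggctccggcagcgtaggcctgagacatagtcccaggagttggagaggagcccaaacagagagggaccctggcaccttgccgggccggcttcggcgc
The Alas1 run holds no copy of the core. The 20 bases around each copy, with the core in capitals and, for Alas1, the whole stretch that its overlapping copies on both strands cover, are at chr9:65294168-65294187 (plus strand) and chr9:106247911-106247930 (minus strand).
Clpx site: ctccacGCATGCGCagcgta
Alas1 site: ccaagGCGCATGCGCggcgg
Counted from the start, the Clpx core begins at position -86, and the printed Alas1 site at position 25 of the first start and -200 of the second.

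The core was searched on both strands in the 300 bases from 250 before to 50 after each start, and was found in 2.71% of the 32851 RefSeq mouse promoters of that length. The other motifs searched in the same way were the clock E-box CACGTG (7.15% of promoters), the cyclic AMP element TGACGTCA (1.79%), the nuclear receptor hexamer AGGTCA (16.3%), the D-box TTANGTAA (2.32%) and the androgen receptor hexamer AGAACA (19.0%). None of these was matched in the windows of Alas1 or Clpx, which says only that these letters are not in these windows. Nrf1, the gene of the factor, had a Pearson r of -0.058 with Alas1 and -0.441 with Clpx over the 40 livers. Once group means were removed, the values were -0.054 and -0.684. Other genes had values of about this size with Clpx there, as Ireb2 at 0.69 and Clpb at -0.656. Whether Nrf1 has a part in the levels of either gene was not tested.

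Alas1 was lowest in intact females and in gonadectomized animals on placebo, and highest under DHT. Intact females had Alas1 log2 ratios of -0.30, -0.70, -1.68, -1.11 and -0.41 (animals 1 to 5; mean -0.84 ± 0.57 SD, n = 5). Intact males had -0.14, -0.08, 0.32, 0.25 and -0.36 (animals 8 to 12; mean 0.0011 ± 0.28). All intact females were below the pool, males lay on both sides of it, and the sexes overlapped only between female animal 1 and male animal 12.

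Ovariectomized females on placebo had Alas1 log2 ratios of -0.47, -0.59, -0.63, -0.62 and -0.70 (animals 16 to 20; mean -0.60 ± 0.085). Castrated males on placebo had -0.72, -0.98, -1.34, -1.18 and -0.0038 (animals 24 to 28; mean -0.85 ± 0.53). All these livers were below the pool, the females were the tightest of the 8 groups, and male animal 28 stood well above the rest of its group, at about the mean of the intact males.

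With estradiol, ovariectomized females had Alas1 log2 ratios of 0.14, -0.94, -0.79, -0.17 and -0.21 (animals 33 to 37; mean -0.39 ± 0.45). Castrated males with estradiol had 0.26, -0.25, -0.375, 0.36 and 0.75 (animals 41, 43, 44, 45 and 46; mean 0.15 ± 0.46). The estradiol groups spread over both sides of the pool, with 1 of 5 females and 3 of 5 males above it.

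With DHT, ovariectomized females had Alas1 log2 ratios of 0.22, 0.51, 0.43, 0.53 and 0.25 (animals 50 to 54; mean 0.39 ± 0.14). Castrated males with DHT had 1.59, 0.79, 0.33, 0.245 and 0.72 (animals 59 to 63; mean 0.74 ± 0.54). Every DHT liver, 5 of 5 in each sex, was above the pool, and male animal 59 was the highest of all 40. As geometric means, Alas1 was at 0.558 times the pool in intact females, 1.0 in intact males, 0.659 and 0.556 on placebo, 0.761 and 1.11 with estradiol and 1.31 and 1.67 with DHT (gonadectomized females first in each pair). From high to low the order was castrated DHT, ovariectomized DHT, castrated estradiol, intact male, ovariectomized estradiol, ovariectomized placebo, intact female and castrated placebo, and each neighbouring pair overlapped.

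Clpx ran the other way: it was highest in intact animals, near the pool on placebo and lowest under DHT. By its probe of larger spread, Clpx log2 ratios were 1.23, 1.19, 0.84, 0.59 and 0.53 in intact females 1 to 5 (mean 0.88 ± 0.33). Intact males 8 to 12 had 1.04, 0.67, 0.70, 0.0094 and 0.80 (mean 0.645 ± 0.38). All 10 intact livers were above the pool, male animal 11 only just.

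On placebo, ovariectomized females 16 to 20 had Clpx log2 ratios of -0.24, -0.26, 0.46, 0.23 and 0.32 (mean 0.10 ± 0.33). Castrated males 24 to 28 had 0.26, 0.0007, -0.67, 0.23 and 0.34 (mean 0.03 ± 0.41). These livers lay around the pool, with 3 of 5 females and 4 of 5 males above it, and castrated animal 26 was the lowest.

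With estradiol, Clpx log2 ratios were -0.29, -0.83, 0.25, -0.675 and -0.24 in ovariectomized females 33 to 37 (mean -0.36 ± 0.42). Castrated males 41, 43, 44, 45 and 46 had -0.68, -0.70, -0.055, -0.90 and -0.91 (mean -0.65 ± 0.35). Most of these livers were below the pool; female animal 35 was above it, and male animal 44 stood apart from its group near the pool.

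With DHT, Clpx log2 ratios were -0.47, -1.43, -0.46, -1.26 and -0.73 in ovariectomized females 50 to 54 (mean -0.87 ± 0.45). Castrated males 59 to 63 had -1.30, -1.50, -1.71, -1.01 and -0.92 (mean -1.29 ± 0.33). None of the DHT livers reached the pool. As geometric means, Clpx was at 1.84 times the pool in intact females and 1.56 in intact males, 1.07 and 1.02 on placebo, 0.78 and 0.638 with estradiol and 0.548 and 0.41 with DHT.

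The other Clpx probe gave group means of 0.73, 0.61, 0.18, 0.0041, -0.42, -0.51, -0.72 and -1.21 in the same order of groups. Both probes thus put the groups in 1 order, from intact female through intact male, ovariectomized and castrated placebo, ovariectomized and castrated estradiol to ovariectomized and castrated DHT, and each neighbouring pair overlapped. The animal numbers rise through the groups in this same order, and the labels give no date or hour at which livers were taken. The probes had r = 0.982 over the 40 livers and r = 0.936 once group means were removed. Differences between the 8 groups held 80.8% and 78.0% of the variance of the Clpx probes, against 68.1% for Alas1. The SD over the 40 livers was 0.78, 0.72 and 0.67 (log2), which ranked 159, 199 and 233 among all probes.

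**Figure D1:**
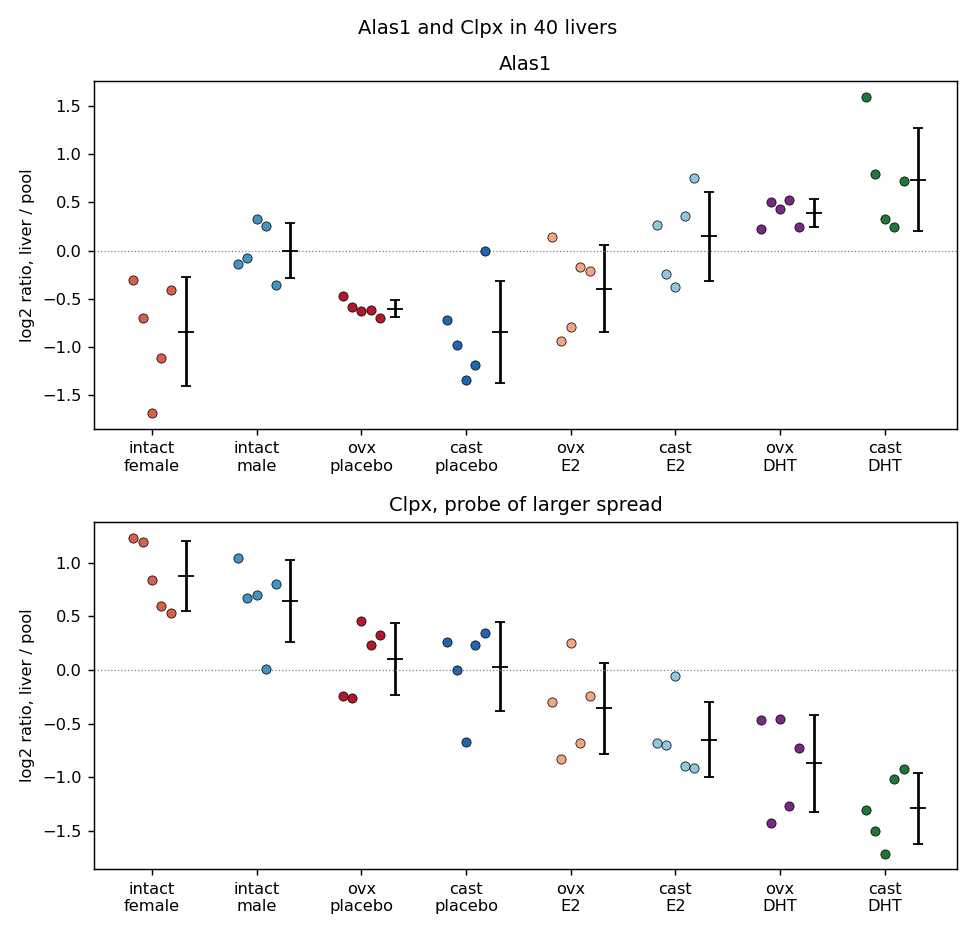
Log2 ratio to the pool (y axis) of Alas1 (top) and of the Clpx probe of larger spread (bottom) in each of 40 livers, by group (x axis; ovx, ovariectomized; cast, castrated; E2, estradiol); points are livers, horizontal marks are means and bars are ± 1 SD of 5 livers. Alas1 is above the pool in every DHT liver and below it in every placebo liver, while Clpx descends from means of 0.88 in intact females to -1.29 in castrated males with DHT.

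With DHT both genes had groups that did not overlap with those on placebo, and the differences had opposite directions. In castrated males Alas1 was 2.99-fold higher with DHT than with placebo (log2 difference 1.58 ± 0.25, SE of the limma fit) and Clpx 2.5-fold lower (-1.32 ± 0.23; -1.21 for the other probe). In ovariectomized females Alas1 was 1.98-fold higher (0.99 ± 0.25) and Clpx 1.96-fold lower (-0.97 ± 0.23; -0.90 for the other probe). Over all probes, 4.06% of those in castrated males and 4.5% of those in ovariectomized females had DHT and placebo groups that did not overlap; since this contrast helped to choose the members, nothing is read from that share. The DHT differences of the sexes were apart by -0.59 ± 0.36 for Alas1 and 0.35 ± 0.32 for Clpx (female minus male).

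With estradiol the means lay on the same side of placebo as with DHT, with smaller differences in both genes and both sexes. In castrated males Alas1 was 1.99-fold higher than on placebo (0.9957 ± 0.25), and the groups overlapped only through placebo animal 28; Clpx was lower by 0.68 ± 0.23 on the log2 scale, or by 0.52 by the other probe, with groups that overlapped. In ovariectomized females the estradiol difference was 0.21 ± 0.25 for Alas1 and -0.46 ± 0.23 for Clpx (-0.60 for the other probe), again with overlap. Groups of all probes did not overlap for 2.87% in castrated males and 1.87% in ovariectomized females. The 4 hormone comparisons share their placebo livers in pairs, so the DHT and estradiol differences of a sex are not independent.

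Gonadectomy went with lower Clpx in both sexes and with lower Alas1 in males. Clpx was lower on placebo than in intact animals by 0.78 ± 0.23 in females and by 0.61 ± 0.23 in males (log2), or by 0.55 and 0.60 with the other probe. The groups did not overlap in females by the probe of larger spread and overlapped by the other probe, and in males they overlapped by both. With quantile normalization the male Clpx difference was -0.38. Alas1 was lower by 0.85 ± 0.25 after castration, with overlap through animal 28, and differed by 0.24 ± 0.25 after ovariectomy, or by 0.03 without animal 3. Across all probes 8.25% had groups without overlap for castration and 1.11% for ovariectomy. Castration is thus a comparison in which both means were lower, and the genes did not run opposite to each other.

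Intact females and males differed in Alas1 by -0.84 ± 0.25 (1.79-fold lower in females) and in Clpx by 0.23 ± 0.23 (0.12 for the other probe), with overlapping groups in each case; 6.74% of all probes did not overlap between the sexes. The Clpx difference was 0.53 with quantile normalization, 0.05 with array weights and 0.08 without animal 11. On placebo after gonadectomy, the female minus male difference was 0.24 ± 0.25 for Alas1 and 0.07 ± 0.23 for Clpx (0.18 for the other probe), all with overlap, against 1.47% of probes without it. The Clpx difference turned sign with array weights and without animal 18 or 26. The sign of the sex difference in Alas1 means thus turned between intact and gonadectomized animals, and the second difference is within its own error.

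The difference between the log2 ratios of Alas1 and Clpx in the same liver puts the opposite movement into 1 value. It averaged -1.72 ± 0.58 in intact females, -0.64 ± 0.60 in intact males, -0.70 ± 0.40 and -0.88 ± 0.40 on placebo, -0.04 ± 0.62 and 0.80 ± 0.77 with estradiol and 1.25 ± 0.57 and 2.02 ± 0.63 with DHT. In the DHT groups it ran from 0.69 to 1.93 in females and from 1.26 to 2.90 in males, so all 10 values were positive. In intact females all 5 values were negative, from -2.53 to -0.94.

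Over the 40 livers Alas1 and Clpx had a Pearson r of -0.579 and a Spearman rho of -0.598 (-0.558 and -0.571 with the other Clpx probe). Without animals 59 and 3, the livers farthest from the Alas1 median, r was -0.515 (n = 38). The points share the groups, the pool channel and the array of each liver. Once each group's mean was removed, r was -0.051 and rho -0.109, so the opposite ranking of the genes lay between the groups and not among the livers of a group. The r was -0.763 over the means of the 8 groups, -0.685 in the 30 gonadectomized livers, -0.723 in the 20 placebo and DHT livers and -0.282 in the 10 intact livers; it was -0.663 in females and -0.49 in males.

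**Figure D2:**
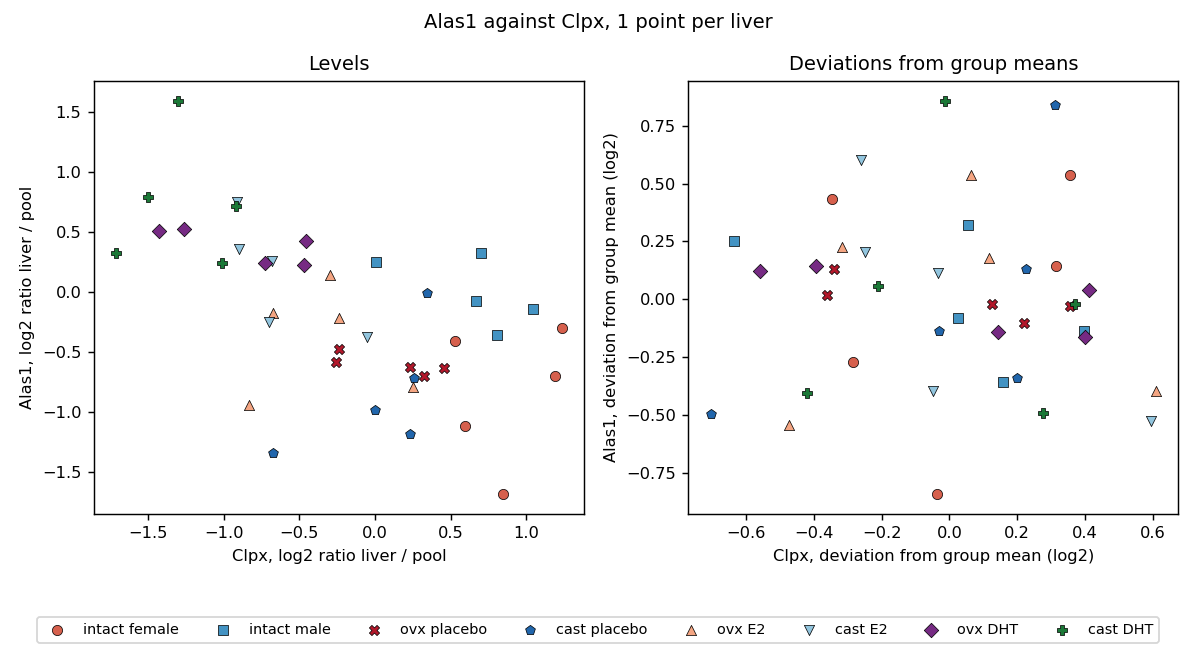
Alas1 (y axis) against the Clpx probe of larger spread (x axis), both log2 ratios to the pool, 1 point per liver and 1 symbol per group; the left panel plots levels and the right panel deviations from each group's mean. The left panel descends from intact females at lower right to castrated males with DHT at upper left (r = -0.579), and the right panel shows a cloud without slope (r = -0.051).

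Ranked by r with Alas1 among 10665 named genes, clone names left out, Clpx was the 68th from the lowest end, and by r with Clpx, Alas1 was the 143rd. The middle 90% of genes had r from -0.423 to 0.457 with Alas1 and from -0.422 to 0.41 with Clpx. The correlation of the pair helped to choose these genes, so nothing is read from these places.

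The genes whose ratios followed Alas1 most closely over the 40 livers were Mtss1 (r = 0.812), which encodes a membrane-bending actin regulator, Polg2 (0.804), the accessory subunit of the mitochondrial DNA polymerase, the carboxylesterases Ces3b (0.802) and Ces3a (0.79), the steroid dehydrogenase gene Hsd3b2 (0.792) and Hes6 (0.789), a basic helix-loop-helix factor. Mtss1 had mean log2 ratios of -0.47 in intact females and 0.51 in castrated males with DHT. It kept r = 0.649 with Alas1 inside groups, so livers of 1 group that were high in Alas1 tended to be high in Mtss1; inside groups Ces3a had 0.584, Ces3b 0.572, Polg2 0.466, Hsd3b2 0.433 and Hes6 0.333. Castrated placebo animal 28, the highest of its group in Alas1, was also the highest of its group in Mtss1, at 0.27. Ovariectomized estradiol animal 34, the lowest of its group in Alas1, was above most of its group in Mtss1, at 0.01. Mtss1 was picked by its r in these livers, so single animals add no support. At the other end were Crip2 (r = -0.745), Cables1 (-0.741), the atypical cadherin gene Celsr1 (-0.72) and the angiotensin receptor gene Agtr1a (-0.72). A second Crip2 probe had r = -0.18, so the Crip2 value rests on 1 of its 2 probes.

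Insig2 ran closest to Clpx, with r = 0.933 over the 40 livers and 0.856 inside groups. It encodes an endoplasmic reticulum protein that holds the SREBP escort SCAP back. Insig2 group means were 0.79 and 0.71 in intact females and males, -0.11 and -0.08 on placebo, -0.22 and -0.55 with estradiol and -0.46 and -1.39 with DHT. Castrated placebo animal 26 and intact male animal 11, each the lowest of its group in Clpx, were also the lowest in Insig2, at -0.81 and -0.08, and castrated estradiol animal 44, the highest of its group in Clpx, was the highest in Insig2, at 0.29. Among intact females the lowest Clpx was in animal 5 and the lowest Insig2 in animal 4. Insig2, too, was picked by its r in these livers. Next to Insig2 came the monocarboxylate transporter gene Slc16a1 (r = 0.884; 0.69 inside groups), the ubiquitin ligase gene Nedd4l (0.883; 0.639), Btg1 (0.873; 0.435), the clock activator gene Arntl (0.858; 0.367) and Tmem64 (0.85; 0.543). The second Btg1 probe had r = 0.69. Lowest were the oxysterol-binding protein gene Osbpl2 (r = -0.89; -0.708 inside groups), the deubiquitinase gene Usp2 (-0.885; -0.501), the thymidine kinase gene Tk1 (-0.862; -0.614) and the lymphotoxin receptor gene Ltbr (-0.837; -0.565).

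**Figure D3:**
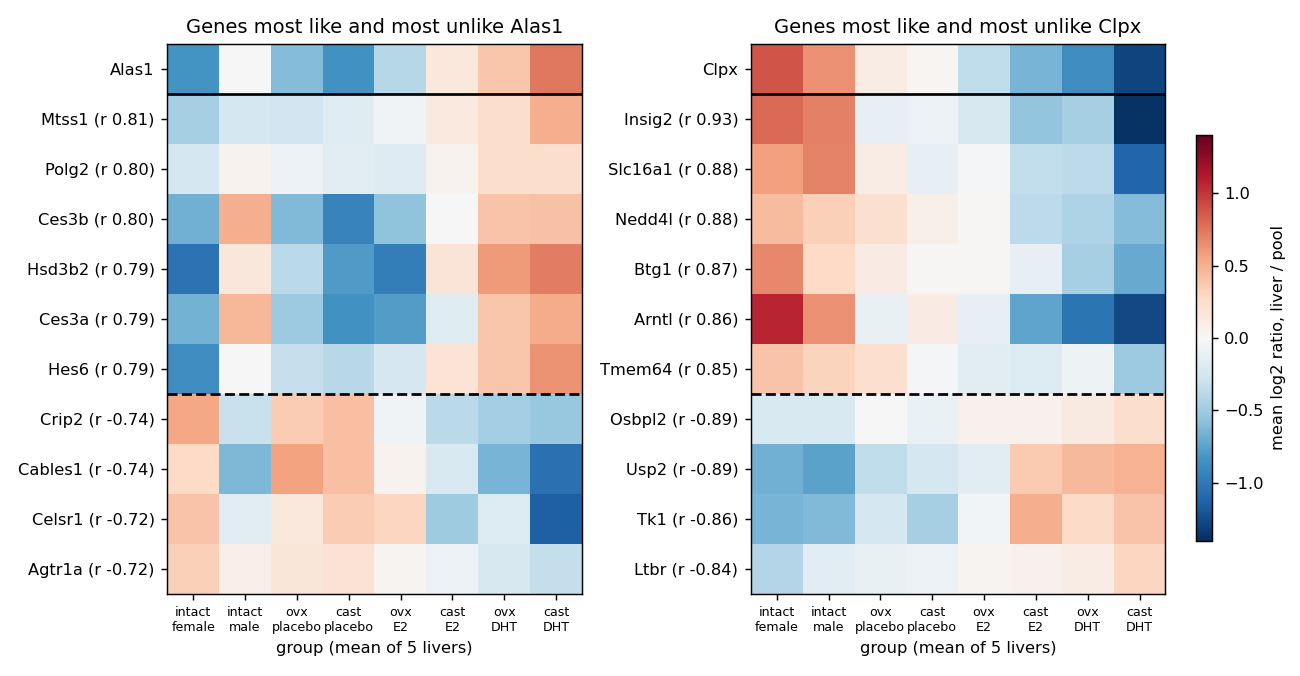
Mean log2 ratio to the pool (colour) in the 8 groups of 5 livers (columns) for Alas1 and Clpx (top line of each panel) and, under it, the 6 genes of highest and, below the dashed line, the 4 of lowest Pearson r with each over 40 livers. The genes on the right turn sign between intact and DHT animals together with Clpx, as Insig2 does from 0.79 to -1.39.

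Of the clock genes among the measured regulators, some ran with the members and others did not. Arntl had r = -0.676 with Alas1 and 0.858 with Clpx, Per2 had 0.641 and -0.808, and Dbp had 0.597 and -0.792. Clock (r = -0.149 with Alas1 and 0.125 with Clpx), Per1 (0.156 and -0.323) and Nr1d1 (-0.065 and -0.141) did not rank with either member, and Npas2 had r = -0.228 with Alas1 and 0 with Clpx. Over all livers, values with Clpx near those of Per2 and Dbp were not particular to clock genes. The mitochondrial iron carrier gene Slc25a37, by the more variable of its probes, had r = -0.813 with Clpx and 0.519 with Alas1. Among fasting and feeding genes, Pdk4 had 0.758 with Clpx and -0.548 with Alas1, Srebf1 -0.742 and 0.44, and Igfbp1 0.727 and -0.525. Others of that list had smaller values with Clpx, as Cpt1a at 0.16 and Tat at 0.231. Group means of Clock ran only from -0.071 to 0.069. Arntl means ran largely as those of Clpx did, from 1.06 in intact females and 0.64 in intact males through -0.11 and 0.12 on placebo and -0.11 and -0.74 with estradiol to -1.02 and -1.26 with DHT. Inside groups Clpx had r = -0.735 with Tef and -0.595 with Dbp, both D-box factors of the clock output, and Alas1 had -0.402 with Arntl and 0.379 with Per2. Values of about this size inside groups were not particular to clock genes. Clpx had 0.696 with Abcg2, 0.69 with Ireb2 and -0.596 with Lonp1, and Alas1 had 0.548 with Abcc2. Castrated placebo animal 28 had the lowest Arntl of its group (-0.87) and the highest Alas1. Its Clpx was also the highest of its group by the probe of larger spread (0.34), opposite to the positive r of Arntl with Clpx. By the other Clpx probe it had 0.251, below animal 27 at 0.2655. The check for values far from the others, given below, flagged none of these values of animal 28. The part of Arntl, Per2 and Dbp in the differences of Alas1 and Clpx was not tested. The labels give no hour of death, so a difference in hour between groups cannot be told apart from the gonads and the pellet. Ppargc1a, whose product activates Alas1 in fasting, had r = -0.205 with Alas1 and was not called in any of the 8 comparisons, nor was Nrf1.

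None of the later enzymes of the pathway passed the test. Of the 9 genes of heme synthesis 6 were measured, and of the 5 besides Alas1 the limma fit called only Alas2 (adjusted p under 0.05), the synthase of red cell precursors. Where called, Alas2 was 20% of the 5 genes, beside 1.15% to 12.1% of all probes. Alas2 log2 ratios were 0.57, 0.49, 0.84, 1.14 and 0.88 in intact males and -0.72, -0.86, -1.06, -0.88 and -0.86 in intact females, without overlap. Alas2 was 3.16-fold lower in intact females than in intact males (-1.66 ± 0.24, adjusted p = 5.37e-06) and fell by 1.41 ± 0.24 after castration (adjusted p = 6.65e-05). In castrated males with DHT it had 1.23, 0.83, -0.57, 1.35 and 0.49 (animals 59 to 63), and in ovariectomized females with DHT 0.63, 0.65, 0.48, -0.79 and 0.37 (animals 50 to 54). Animals 61 and 53 stayed at placebo levels of Alas2 while the other 8 DHT livers were above every placebo liver; their Alas1 (0.33 and 0.53) was above the pool like that of the other DHT livers. Alas2 rose with DHT by 1.29 ± 0.24 in castrated males (adjusted p = 0.00123) and by 0.95 ± 0.24 in ovariectomized females (adjusted p = 0.0342). The female call was lost without any 1 of 9 of the 10 animals (all but animal 53, without which the difference was 1.22), while the other 3 calls held without each animal in turn. Both DHT calls of Alas2 were lost when only the placebo and DHT livers of the sex were fitted (adjusted p = 0.0643 in males and 0.0571 in females).

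Alas2 is also a marker of erythroid cells, and the globin genes measured beside it did not pass the test. Hba-a1, Hbb-b1, Hbb-b2 and Slc4a1 were not called in any of the 8 comparisons; Hba-a1 differed by 0.11 ± 0.19 with DHT in castrated males (adjusted p = 0.918) and by -0.24 ± 0.19 after castration (adjusted p = 0.442), while Hbb-b1 differed by 0.44 ± 0.28 with DHT in castrated males (adjusted p = 0.494). The other 2 measured erythroid genes were each called in 1 comparison, opposite in sign to Alas2: Epor at 0.43 ± 0.093 in intact females against males (adjusted p = 0.00173) and Klf1 at 0.73 ± 0.15 after castration (adjusted p = 0.000785). The mean of all 7 erythroid markers, Alas2 included, ran from -0.222 in ovariectomized placebo to 0.11 in castrated DHT. Uros, Alad, Cpox and Ppox were not called; the nearest were Ppox after castration (-0.17 ± 0.061, adjusted p = 0.0649) and Uros with DHT in females (-0.37 ± 0.11, adjusted p = 0.0816). Alad, the second enzyme of the pathway, had r = -0.707 with Clpx inside groups. Genes of other lists had values of about this size there, as Sirt1 at 0.695 and Clpb at -0.656.

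**Figure D4:**
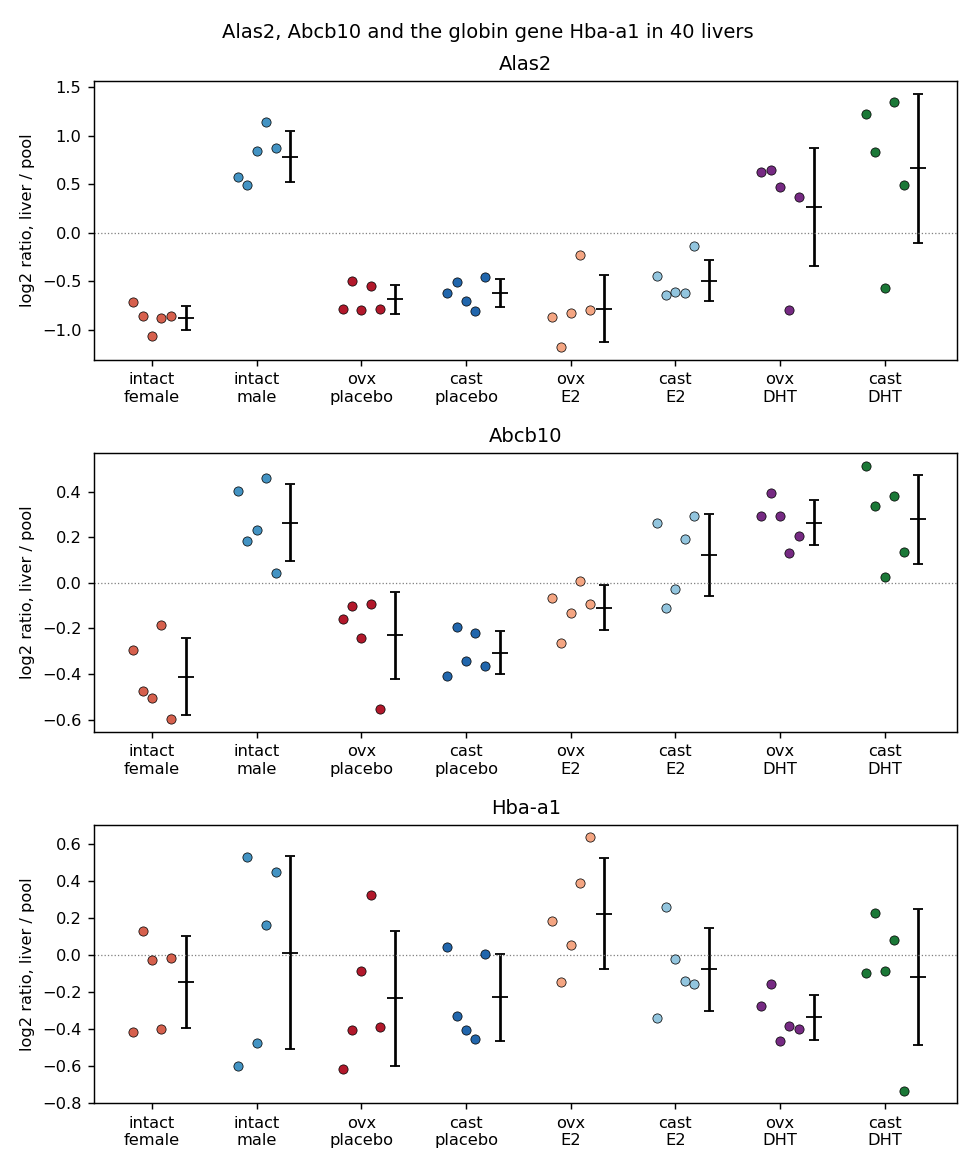
Log2 ratio to the pool (y axis) of Alas2, of the mitochondrial transporter gene Abcb10 and of the globin gene Hba-a1 in each of 40 livers, by group (x axis); points are livers and bars are the mean ± 1 SD of 5 livers. Alas2 and Abcb10 are high in intact males and with DHT, except that DHT animals 53 and 61 keep Alas2 at -0.79 and -0.57, and Hba-a1 does not follow them.

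The wider heme network was read from 6 lists, 81 measured genes without Alas1 and Clpx: heme synthesis, its mitochondrial partners, heme breakdown and transport, mitochondrial proteases and chaperones, regulators of ALAS1 and iron handling. In intact females against intact males 2 of the 81 rose and 7 fell, or 11.1%, beside 8.69% of all probes called. After castration 2 rose and 8 fell (12.3%, beside 12.1% of all probes). After ovariectomy 1 rose (1.23%, beside 0.0339%), and between the placebo groups 0 were called (10 at an unadjusted p under 0.05), beside 0.0679% of all probes. With estradiol 1 fell in ovariectomized females (beside 0.632% of all probes) and 1 rose in castrated males (beside 1.18%). With DHT 3 rose in ovariectomized females (3.7%, beside 1.15%), and 6 rose and 1 fell in castrated males (8.64%, beside 3.47%). The medians of the 81 differences lay between -0.043 and 0.064, and those of all probes between -0.023 and 0.025.

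Among the mitochondrial partners of heme synthesis, Abcb10, which encodes an inner membrane transporter needed for hemoglobin synthesis in red cells, was called in more comparisons than any other gene of the 81. It was lower in intact females than males by 0.68 ± 0.097 (adjusted p = 5.15e-06), fell by 0.57 ± 0.097 after castration (adjusted p = 6.52e-05) and rose with DHT by 0.59 ± 0.097 in castrated males (adjusted p = 0.000435) and 0.49 ± 0.097 in ovariectomized females (adjusted p = 0.00603). It also rose with estradiol in castrated males, by 0.43 ± 0.097 (adjusted p = 0.0186), a call lost without animal 24 or 46, or with only the groups compared in the fit (adjusted p = 0.0899). All 5 comparisons had groups that did not overlap. Its r was 0.783 with Alas1 and -0.504 with Clpx, and 0.365 and -0.143 inside groups. Of the other 13 partners, Cox15, of heme A synthesis, was lower in intact females by 0.43 ± 0.074 (adjusted p = 8.74e-05) and fell by 0.41 ± 0.074 after castration (adjusted p = 0.000181).

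With DHT, 4 of the 14 partners rose in castrated males, or 28.6%, beside 3.47% of all probes. They were Abcb10, the ferredoxin gene Fdx1 (0.59 ± 0.11, adjusted p = 0.00181), the mitochondrial iron carrier gene Slc25a37 (0.52 ± 0.12, adjusted p = 0.0141) and the cysteine desulfurase gene Nfs1 (0.48 ± 0.11, adjusted p = 0.0105). The Slc25a37 call is on 1 of 2 probes, the other at -0.0068, and was lost without animal 24, 27, 60 or 62 or with only the groups compared (adjusted p = 0.0666); that of Nfs1 was lost without animal 62. Nfs1 also fell after castration by 0.38 ± 0.11 (adjusted p = 0.0198), lost without animal 8 or 26 or with quantile normalization (adjusted p = 0.0574). Clpp, the protease that works with Clpx, was not called in any of the 8 comparisons and had r = 0.001 with Clpx and 0.093 with Alas1.

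The called genes of heme breakdown and transport were called mostly in comparisons with intact males, where calls over all probes were also most frequent. Of the 12 genes 25% were called between the intact sexes, beside 8.69% of all probes. After castration 33.3% were called, beside 12.1%. Abcg2, an exporter of porphyrins among other compounds, differed by -1.50 ± 0.23 between intact females and males (adjusted p = 1.21e-05) and fell by 1.52 ± 0.23 after castration (adjusted p = 7.72e-06). It rose by 0.92 ± 0.23 with DHT in ovariectomized females (adjusted p = 0.032), a call lost without animal 16, 17, 19, 20, 50, 51, 52 or 54. Flvcr2, related to the heme exporter gene Flvcr1, went the opposite way, higher in intact females by 0.87 ± 0.16 (adjusted p = 0.000216) and risen by 0.62 ± 0.16 after castration (adjusted p = 0.00725). Hmox1, the inducible heme oxygenase that opens the heme ring, rose by 1.21 ± 0.30 after castration (adjusted p = 0.00521). The bilirubin conjugate exporter gene Abcc2 was lower by 0.36 ± 0.11 in intact females (adjusted p = 0.0324) and fell by 0.33 ± 0.11 after castration (adjusted p = 0.0405); these calls were lost without animals 2, 3, 4, 8, 10 or 12 and without animals 8, 10, 12, 24, 25, 26 or 27, and with quantile normalization.

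The other mitochondrial proteases and chaperones gave few calls. Of those 11, only Spg7 was called, in 1 of 8 comparisons (9.09% after castration, beside 12.1% of all probes). It fell by 0.24 ± 0.082 after castration (adjusted p = 0.048), lost without any of 8 of the 10 animals, left out singly (8, 9, 10, 11, 24, 26, 27 and 28), and with quantile normalization (adjusted p = 0.0807). Single livers ranged from -0.82 to 2.42 in Hspd1, the mitochondrial chaperonin gene, by the most variable of its 11 probes. In Clpp, which has 1 probe, they ranged from -0.23 to 0.29. Of the 25 regulators measured, Arntl fell by 1.38 ± 0.26 (adjusted p = 0.00162) and Per2 rose by 1.22 ± 0.30 (adjusted p = 0.0155; lost without animal 24 or with only the groups compared) with DHT in castrated males. Nr1d1, a heme-binding repressor in the clock, was lower in intact females by 0.73 ± 0.22 (adjusted p = 0.029; lost without animal 2, 3, 4, 10, 11 or 12) and rose by 1.16 ± 0.22 after ovariectomy (adjusted p = 0.0387; lost without animal 1, 2, 3, 4, 16, 17 or 19). Its relative Nr1d2 was lower in intact females by 0.67 ± 0.17 (adjusted p = 0.0084), by 1 of 2 probes, the other at 0.0745. Ppara, the fatty acid receptor of fasting, fell by 0.67 ± 0.16 with estradiol in ovariectomized females (adjusted p = 0.0421; lost without animal 16, 17, 18, 19, 35, 36 or 37).

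Of 15 iron handling genes, Hamp, the gene of the iron hormone hepcidin, was higher in intact females by 1.16 ± 0.34 (adjusted p = 0.0268; lost without animal 2, 4, 5, 8 or 10), and Hfe fell by 0.34 ± 0.12 after castration (adjusted p = 0.0453; lost without animal 8, 10, 12, 24, 25, 26 or 27). Each was 6.67% of the 15, beside 8.69% of all probes between the intact sexes and 12.1% after castration. No iron gene was called with a hormone pellet, beside 0.632% to 3.47% of all probes. At an unadjusted p under 0.05 in limma there were 3 with estradiol in ovariectomized females and 4 in castrated males. With DHT there were 1 and 2. Of the 10 heme proteins and P450 partners measured, outside the 6 lists, 1 was lower in intact females than males (10%, beside 8.69% of all probes) and 3 fell after castration (30%, beside 12.1%). With DHT or estradiol 0 were called in either sex (1 to 3 at an unadjusted p under 0.05), beside 0.632% to 3.47% of all probes. Of 14 fasting and feeding genes, Insig2 among them, 3 were higher and 1 lower in intact females than males (28.6%, beside 8.69% of all probes), and 3 rose and 2 fell after castration (35.7%, beside 12.1%). After ovariectomy 1 fell (7.14%, beside 0.0339%). With estradiol 1 fell in castrated males (7.14%, beside 1.18%). In ovariectomized females 0 were called (3 at an unadjusted p under 0.05), beside 0.632% of all probes. DHT lowered 1 in ovariectomized females (7.14%, beside 1.15%) and 2 in castrated males (14.3%, beside 3.47%).

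The response to gonadectomy differed by sex for 6 of the 81 genes (7.41%, beside 4.4% of all probes), tested as the female minus the male change. It was 0.75 ± 0.14 for Abcb10 (adjusted p = 0.000672), 1.60 ± 0.34 for Alas2 (adjusted p = 0.00331), 1.34 ± 0.32 for Abcg2 (adjusted p = 0.00925), -0.90 ± 0.22 for Flvcr2 (adjusted p = 0.0139), 0.41 ± 0.11 for Cox15 (adjusted p = 0.0169) and -1.64 ± 0.49 for the lipin gene Lpin1 (adjusted p = 0.0483). In each of the first 5 the change in males was larger than in females, as for Alas2, with -1.41 in males and 0.19 in females. With quantile normalization the calls of Abcg2 (0.94, adjusted p = 0.0949), Flvcr2 (adjusted p = 0.0505), Cox15 (adjusted p = 0.0852) and Lpin1 (adjusted p = 0.0609) were lost, and Lpin1 also lost its call in 16 of 20 fits without 1 animal. The same quantity was 1.09 ± 0.36 for Alas1 and -0.16 ± 0.32 for Clpx (0.06 for the other probe), given here without a test. The difference between the sexes in the DHT and in the estradiol response was called for 0 of the 81 genes by limma (13 and 8 at an unadjusted p under 0.05), beside 0% of all probes called in either.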

How the data were processed

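Liver RNA of 40 mice was measured on 2-colour arrays (Cy5 liver, Cy3 pool of 40 livers, no dye swap), per the labels. The authors deposited log10 ratios of 23574 probes, with values limited to ± 2; 29 were at the limit. The background correction, normalization and centring were not given in the sources used here. Log base and direction were checked on Eif2s3y, whose male mean is 1.94-fold the pool if the values are log10. Ratios were converted to log2. Depth does not apply; 5 arrays a group limit the precision, and p-values measure the spread between animals.

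Probes were named through the platform annotation, updated by RefSeq (13665 probes with 1 symbol, 48 with several); a gene of several probes took that of the largest SD over 40 arrays. Group means were fitted with limma 3.58.1 (R 4.3.3; lmFit, eBayes) on all arrays, 32 residual and 3.42 prior degrees of freedom, two-sided, Benjamini-Hochberg over all probes, threshold 0.05; the script was tested on simulated data. The labels give no batch. The genes named are both members, every measured heme synthesis gene, up to 4 called genes of each of 6 lists per comparison by adjusted p, and the 6 most and 4 least correlated genes; erythroid markers, Clpp, Nrf1 and others outside it were chosen after their values were seen. Members and lists were chosen with earlier results of these data known. Alternatives were quantile normalization, median centring, array weights, only the groups compared, another probe, a filter on low SD, robust eBayes and each animal left out.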

Additional observations from a re-analysis of the deposited data

Results flagged for a closer look

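Of 72 groups of 5 livers checked for a value far from the others (Alas1, both Clpx probes, Alas2, Abcb10, Insig2, Mtss1, Arntl and Hba-a1 in 8 groups each), 3 held one. That is no more than chance gives, at about 1 in 20, and the Clpx probes are not independent of each other. Castrated animal 44 with estradiol had a Clpx log2 ratio of -0.055 against -0.68 to -0.91 in the other 4; the other Clpx probe, at 0.149 there, did not pass the limit. Ovariectomized animal 53 with DHT had Alas2 at -0.79, where the other 4 had 0.37 to 0.65. Ovariectomized animal 20 on placebo had Arntl at 0.73, where the other 4 were below the pool.

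The change with gonadectomy differed between the sexes for 6 heme network genes by the interaction term, female minus male: 0.75 for Abcb10, 1.60 for Alas2, 1.34 for Abcg2, -0.90 for Flvcr2, 0.41 for Cox15 and -1.64 for Lpin1. The last was lost in 16 of 20 fits without 1 animal. For Alas1 the value was 1.09, with all 5 castrated livers below the intact male mean, animal 28 by little, and the ovariectomized mean above the intact female mean; this difference was not tested.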

How the results depend on the processing

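No DHT difference of Alas1 or Clpx moved by over 1.5 times under any alternative. Leaving out 1 animal, Alas1 with DHT in castrated males ran from 1.37 to 1.79 and Clpx from -1.50 to -1.21. Smaller differences moved more, each by less than 1 SD between livers. Clpx between the intact sexes (0.23) was 0.53 with quantile normalization, 0.0494 with array weights, 0.12 with the other probe and 0.146, 0.16 and 0.0759 without animals 1, 2 and 11. Clpx after castration (-0.61) was -0.38 with quantile normalization. Clpx between the placebo groups (0.07) was -0.0437 with array weights and -0.105 to 0.16 without 1 animal, below 0 without animal 18 (-0.0178) or 26. Alas1 after ovariectomy (0.24) was 0.12 with array weights and 0.0282 and 0.37 without animals 3 and 1. Alas1 between the placebo groups (0.24) was 0.12, 0.16 and 0.45 without animals 26, 27 and 28. Alas1 with estradiol in females (0.21) was 0.33 with array weights and 0.0727 and 0.34 without animals 33 and 34. The r over all livers ran from -0.6358 to -0.5461, and that within groups from -0.1519 to 0.0271. Counts of called genes among the 81 moved more. With array weights they were 19 (intact sexes), 24 (castration), 3 (ovariectomy), 6 and 5 (estradiol in females and males) and 9 and 24 (DHT); rises made up 9 of 19 and 12 of 24 in the first pair. Array weights also raised the calls over all probes, to 23.1% (intact sexes), 32.9% (castration) and 16.1% (DHT in males), beside 23.5%, 29.6% and 29.6% of the 81 genes. For ovariectomy, estradiol in females and males and DHT in females they were 0.132%, 4.63%, 3.19% and 5.51%. The 81 genes had 3.7%, 7.41%, 6.17% and 11.1% there. With quantile normalization the counts were 2 for ovariectomy, 2 and 2 for estradiol and 6 for DHT in females. There 5 rose and 1 fell, and in males with DHT 6 rose and 2 fell. These were 2.47% (ovariectomy), 2.47% and 2.47% (estradiol), and 7.41% and 9.88% (DHT) of the 81 genes. Beside them, 0.0679%, 0.751%, 1.09%, 3.21% and 3.53% of all probes were called. Abcg2, Flvcr2, Cox15 and Lpin1 then lost their interaction calls. Quantile normalization also ended the calls of Abcc2, Nr1d1 and Hamp between the intact sexes and of Nfs1, Abcc2 and Spg7 after castration, median centring those of Hfe and Ppara, and array weights and the filter on low SD that of Spg7. With only the groups compared, 11 calls were lost, among them both DHT calls of Alas2. Median centring left 0 for estradiol in females, beside 0.577% of all probes. With only the groups compared the counts were 0 (ovariectomy), 1 (placebo groups), 0 (estradiol in males) and 4 (DHT in males). Calls over all probes are not given for that setting, so nothing is read from these counts. Leaving out 1 animal gave 6 to 14 for the intact sexes, 6 to 12 for castration, 0 to 3 for ovariectomy, 0 for the placebo groups, 0 to 4 and 0 to 3 for estradiol and 1 to 3 and 5 to 11 for DHT. The other probe was at 0.0745 for Nr1d2 and -0.0068 for Slc25a37. Animal numbers are not shared between groups. No paired analysis was possible because no number occurs in more than 1 group. The cause of these shifts was not tested.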
